A study of Aphis gossypii with 6 samples.

Results

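The cotton aphid, Aphis gossypii, carries genes for the Wnt, Notch, Hedgehog and bone morphogenetic protein (BMP) pathways, and their transcripts were compared between an aphid strain resistant to the pyrethroid beta-cypermethrin and a susceptible one. Genes were taken by the wording of their product descriptions, such as Wnt, frizzled, Notch, hedgehog, patched or decapentaplegic, and 46 of the 14013 listed genes matched. Of these, 35 have a product description that places them in one of the pathways, and 11 matched by wording alone. The 11 include proteins with armadillo repeats or a patched domain. Among the 35, the descriptions of delta-like protein 4 and of an author-named BMP-binding locus are weakly founded, as given below. The resistant strain (RGL) came from a field population, and the susceptible strain (SGL) is given as WT in its genotype label. Neither strain had been exposed to the insecticide. Each strain is represented by 3 libraries made from pooled whole bodies, and the labels name no age, stage or morph. Resistance cannot be told apart from whatever else separates these particular strains. Nothing in the labels places the libraries of a strain in separate cultures, so the p-values rest on a spread between samples that may be technical only.

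All 4 pathways carry signals between cells and are reused from embryo to adult in insects, in segmentation, limb and wing growth, gut renewal and the nervous system. Wnt ligands bind frizzled receptors and act through dishevelled and armadillo, the insect beta-catenin. Delta and Serrate ligands on a neighbouring cell activate the Notch receptor, whose cleaved part joins the DNA-binding protein Suppressor of Hairless. Hedgehog binds patched, which otherwise holds smoothened inactive, and dispatched releases the ligand from the cell that makes it. BMP ligands such as decapentaplegic bind paired receptor kinases that phosphorylate Mad proteins. Female aphids of the asexual morphs carry developing embryos, so whole-body RNA holds maternal and embryonic transcripts together.

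The libraries held 31290134 to 46681719 counts, and 43 of the 46 genes had enough counts to be tested. Resistant replicate 1 stood apart from the other libraries of its strain. It was the highest resistant library in 25 of the 43 tested genes (58.1%) and in 42.0% of all 11149 tested genes. Ligand genes there lay a median of 0.35 log2 units above the other resistant libraries, against 0.20 for the 43 genes, 0.74 for cuticle markers, 0.66 for the bacteriocyte list and -0.02 for all tested genes. The median coefficient of variation of ligand transcripts was 28.6% within the resistant strain, 8.36% without resistant replicate 1 and 6.07% in the susceptible strain. Over all tested genes the same medians were 15.8%, 6.53% and 5.99%. For this reason results are also given without that library. Germline and early embryo markers (14 genes, among them vasa-like and piwi-like genes) summed to 781.2 to 856.6 CPM (read counts scaled to library size) in resistant and 783.7 to 803.6 in susceptible libraries, and 2 of 11 tested rose and 0 fell. Embryo segmentation genes (28 genes, some of which matched by wording alone) summed to 986.5 to 1073 and 1008 to 1026 CPM, with 2 of 26 rising and 2 falling. Hairy, LOC114132619, which fell, is also among the further Notch genes below. Nervous system genes (27 genes) summed to 1331 to 1398 and 1320 to 1333 CPM, with 6 of 26 rising and 6 falling. Muscle genes (21 genes) summed to 14262 to 16607 and 13116 to 14006 CPM, with 6 rising and 5 falling. Gut genes (cathepsin B, aminopeptidase N and maltase, 38 genes) summed to 11923 to 15354 in resistant and 4411 to 4661 CPM in susceptible libraries, with 28 of 34 rising and 0 falling. Cuticle genes (50 genes) summed to 16960 to 30115 and 12627 to 13097 CPM, with 28 of 48 rising and 3 falling. The bacteriocyte list (5 genes) summed to 1840 to 2686 and 978.0 to 996.5 CPM, with 5 rising and 0 falling. It was picked by the words bacteriocyte, dilute class, glutamine synthetase or cystathionine, so some genes may have matched by wording alone. Resistant replicate 1 gave the highest resistant sum in every list but germline and early embryo, where it gave the lowest. The part of these lists in the differences below was not tested.

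Between the strains, 8 of the 43 tested genes rose in the resistant strain and 8 fell. Over all tested genes 21.4% rose and 14.4% fell, so that 35.8% passed in either direction, and the 16 of 43 seen here (37.2%) is near that share. At least 2-fold rises were seen in 4 of the 43, where 8.31% of all tested genes rose as much, and 0 fell as much, where 1.96% did. Among the 33 tested genes with a pathway role, 4 rose and 7 fell (12.1% and 21.2%). Delta-like protein 4 and the author-named BMP-binding locus, whose place in a pathway is uncertain, are among the 4 that rose. The shares of all tested genes, 21.4% rising and 14.4% falling, are the reference for the counts of each pathway and list below. The median log2 fold change was -0.04 for the 43 genes and 0.00 for all genes tested, and the median size of the change regardless of sign was 0.28 and 0.34. The libraries of the strains did not overlap in 23 of the 43 (53.5%), against 54.1% of all tested genes. With libraries scaled by their totals alone, which moved the median of all genes by -0.15 on the log2 scale, 5 rose and 11 fell. Over all tested genes that scaling gave 1759 rising and 2322 falling, in place of 2383 and 1611. Without resistant replicate 1, 9 rose and 16 fell, and without susceptible replicates 1, 2 and 3 the numbers were 5, 3 and 4 rising and 4, 4 and 5 falling. Over all genes, 3249 rose and 2826 fell without resistant replicate 1. Without susceptible replicates 1, 2 and 3, 1664, 1692 and 1593 of all genes rose and 812, 788 and 789 fell. These are the reference for counts in the same settings below. In bulk RNA of whole bodies, fewer cells of a type and less RNA per cell cannot be told apart.

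**Figure D1:**
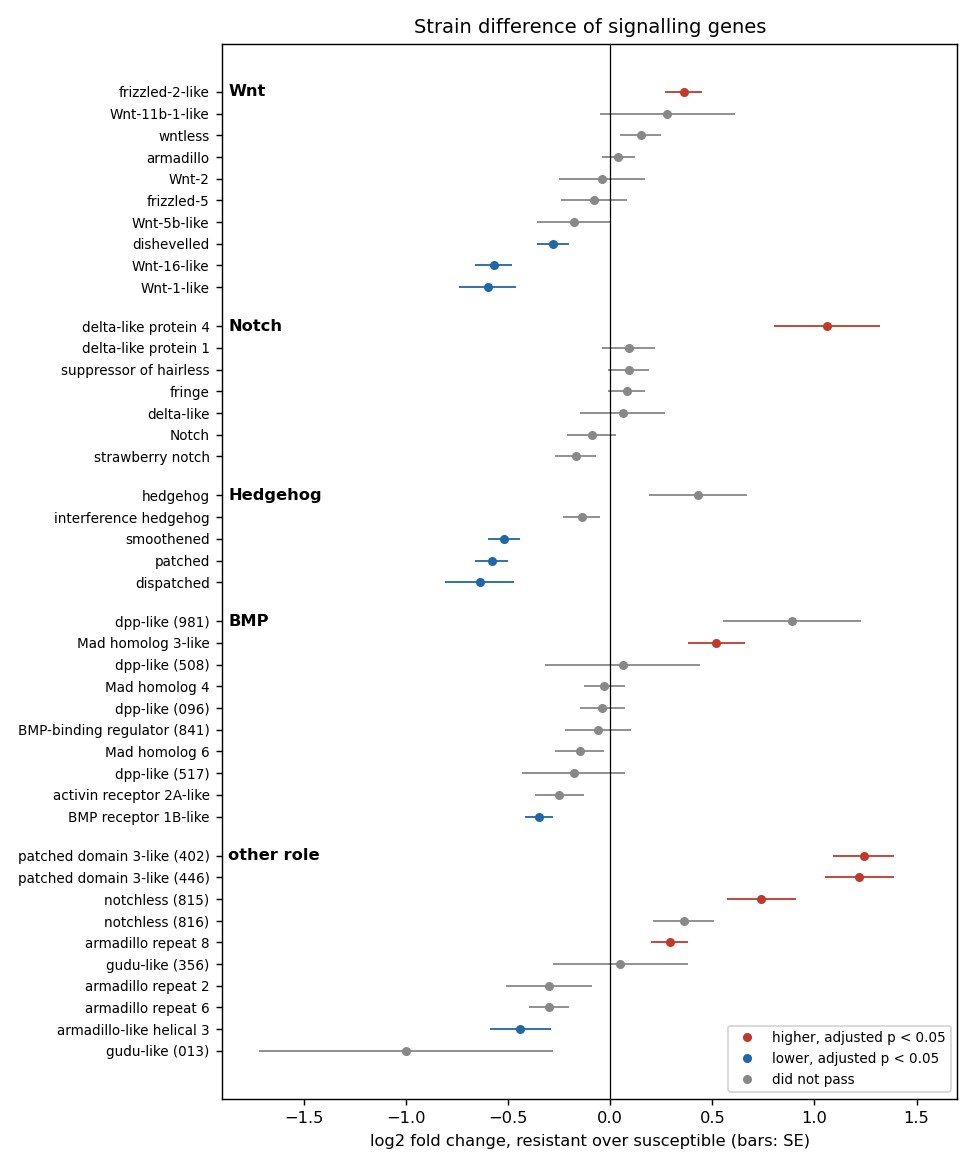
Log2 fold change of each tested gene, resistant over susceptible, with its standard error, grouped by pathway; red and blue points passed an adjusted p of 0.05 (n = 3 libraries per strain). Patched, smoothened and dispatched lie together between -0.64 and -0.52, whereas most Notch genes lie near 0; the author-named BMP-binding gene with 2 counts in all susceptible libraries is left out, and digits in brackets are the end of a gene's identifier.

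Transcript levels per length, as the deposited FPKM averaged over the 6 libraries, spanned 0.0744 to 96.8 among the 35 genes with a pathway role. Intracellular components and receptors were mostly well expressed. Armadillo, at 91.6 FPKM, lay at the 92.7th percentile of genes with a count, the inhibitory Mad homolog 6 was at 72.5 FPKM, the BMP receptor type-1B-like gene at 56.2 and Notch at 49.5. Ligands were lower on the whole. Of 14 ligand genes, 5 lay above the median level of all genes with a count, against 24 of all 35 genes with a pathway role. Hedgehog stood at 10.2 FPKM, below its receptor patched at 35.7 and its transducer smoothened at 22.6. The highest level, 96.8 FPKM, belonged to a gene described as delta-like protein 4, whose annotation as a Notch ligand is weak.

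**Figure D2:**
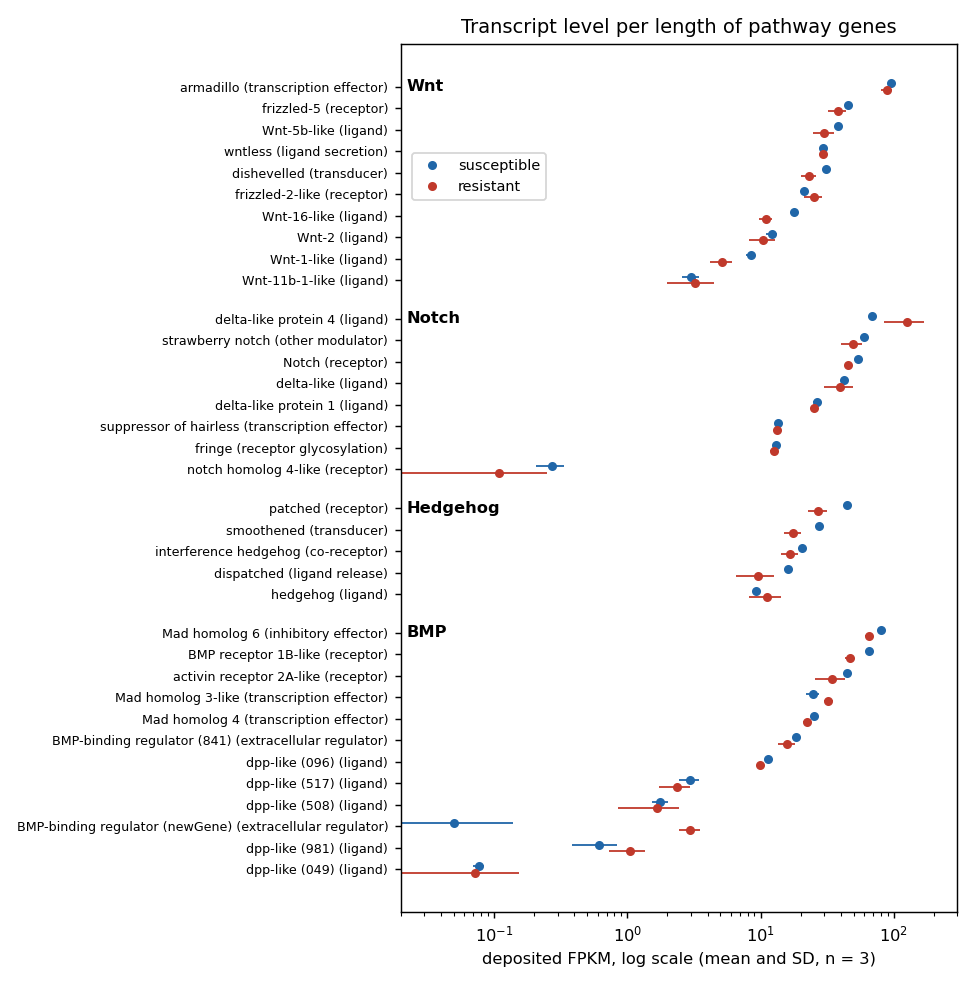
Deposited FPKM of the 35 genes with a pathway role on a log axis, as mean and SD of 3 libraries per strain (blue susceptible, red resistant); SD bars that reach 0 run off the axis. Armadillo and delta-like protein 4 are highest and the decapentaplegic-like gene LOC114128049 lowest, at 0.0744 FPKM over all libraries.

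In the Wnt pathway, transcripts of 2 of 5 ligand genes and of dishevelled fell in the resistant strain, and those of a frizzled receptor rose. The Wnt-1-like gene LOC114122072, named for wingless, the segment polarity ligand of Drosophila, had 10.8, 13.4 and 11.6 CPM in the resistant libraries, in replicate order, and 18, 19.6 and 16.5 in the susceptible ones. All resistant libraries lay below all susceptible ones, with a log2 fold change of -0.60 ± 0.14 (SE, edgeR quasi-likelihood test, adjusted p = 0.0118). The adjusted p was 0.0513 and 0.0625 without susceptible replicates 1 and 2. The Wnt-16-like gene LOC114123248, whose Swiss-Prot match in the table is Drosophila Wnt-2, had 27.3, 28.3 and 27.9 CPM in resistant libraries against 43.0, 39.9 and 41.0 in susceptible ones. Its libraries varied little within a strain, and it fell by 0.57 ± 0.09 on the log2 scale (adjusted p = 0.00219), a call that held in all 13 alternatives tried. Dishevelled, LOC114121475, which relays the signal from frizzled, had 56.7, 57.0 and 61.4 CPM in resistant against 70.5, 72.9 and 69.7 in susceptible libraries. It fell by 0.28 ± 0.08 (adjusted p = 0.0294), but missed the threshold without resistant replicate 2 (0.0826), without susceptible replicates 1, 2 and 3 (0.101, 0.118 and 0.0828) and with the replicate number as a block (0.0801). The frizzled-2-like receptor LOC114126485 had 68.9, 70.9 and 77.9 CPM in resistant and 57.4, 54.2 and 57.7 in susceptible libraries, again without overlap. It rose by 0.36 ± 0.09 on the log2 scale (adjusted p = 0.0141). With library totals alone the change was 0.22 (adjusted p = 0.191), and the adjusted p was 0.0578, 0.0727 and 0.0585 without susceptible replicates 1, 2 and 3.

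The remaining Wnt components did not pass. Armadillo, LOC114123614, the point where the pathway meets transcription and cell adhesion, averaged 340.1 ± 4.65 CPM in resistant libraries against 330.0 ± 5.23 in susceptible ones (SD, n = 3). Its log2 difference was 0.04 ± 0.08 (adjusted p = 0.683), and its libraries just failed to overlap. The receptor frizzled-5, LOC114122340, was at 143.1 ± 37.6 and 151.3 ± 6.33 CPM, and wntless, LOC114123657, which escorts Wnt proteins to the cell surface, at 61.7 ± 5.77 and 55.4 ± 2.70 CPM. Wnt-5b-like LOC114128708 made up 47.9 ± 0.829% of the summed FPKM of the 5 ligands in susceptible libraries and 50% ± 3.08 in resistant ones, followed by Wnt-16-like at 22.5 ± 0.552% and 18.6 ± 3.9%. The Wnt-2 gene LOC114124781 (adjusted p = 0.892), Wnt-5b-like (0.465) and Wnt-11b-1-like LOC114120361 (0.526) were all highest in resistant replicate 1. Wnt-11b-1-like had 8.57 CPM there against 3.75 and 4.17 in resistant replicates 2 and 3 and 3.74 to 5.25 in the susceptible strain. In a list of 16 further genes picked by Wnt pathway wording, 2 of 15 tested rose and 1 fell. It includes beta-catenin-like protein 1, LOC114128090, which matched by wording alone and did not pass (-0.03 ± 0.13, adjusted p = 0.853). The glypican genes, cell-surface proteoglycans that bind Wnt and BMP ligands, both rose. LOC114127315, the division abnormally delayed protein (dally in Drosophila), changed by 0.74 ± 0.11 (adjusted p = 0.0017) and LOC114127357, a glypican-6, by 0.65 ± 0.14 (log2, adjusted p = 0.00924). The receptor kinase Ror-like LOC114126069 fell by 0.45 ± 0.08 (adjusted p = 0.004). Without resistant replicate 1, 4 genes of that list fell, and 2826 of all genes in place of 1611.

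In the Notch pathway 1 of 7 tested genes rose and 0 fell. Delta-like protein 4, LOC114129130, had 408.7, 223.3 and 185.3 CPM in resistant and 127.0, 134.0 and 131.8 in susceptible libraries. All resistant libraries were above the susceptible ones, but resistant replicate 1 was 2 times the mean of the others. The log2 fold change was 1.06 ± 0.26 (adjusted p = 0.0144), or 0.64 without that library (adjusted p = 2.88e-07). Leaving out susceptible replicates 1, 2 and 3 gave an adjusted p of 0.0591, 0.0571 and 0.0606. The name rests on its product description alone: the table gives it no Pfam domain and no Swiss-Prot match and assigns it in KEGG to NF-X1, a transcriptional repressor, so that its place among the Notch ligands is uncertain. The other 2 delta-named genes carry EGF-like domains. It made up 65.3 ± 3.51% of the summed FPKM of the 3 delta-named genes in resistant libraries against 49.8 ± 1.65% in susceptible ones. The gene matched to Drosophila Delta, LOC114129086, had 194.5, 116.9 and 103.8 CPM in resistant libraries against 136.5, 132.7 and 127.8 in susceptible ones. Resistant replicate 1 lay above, and replicates 2 and 3 below, every susceptible library, so the log2 difference of 0.06 ± 0.21 (adjusted p = 0.837) became -0.26 without it (adjusted p = 0.0023). With library totals alone it was -0.11. Delta-like protein 1, LOC114119539, was at 37.5 ± 5.55 and 35.3 ± 2.14 CPM.

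The Notch receptor LOC114120500 had 475.3, 366.1 and 358.9 CPM in resistant and 429.5, 429.3 and 419.5 in susceptible libraries, a log2 difference of -0.09 ± 0.12 (adjusted p = 0.584). It, too, was highest in resistant replicate 1 and passed as lower without it (-0.23, adjusted p = 0.0014). It also passed with library totals alone (-0.25, adjusted p = 0.0386). Suppressor of Hairless LOC114131392, at 34.0 ± 2.22 and 31.9 ± 0.814 CPM, and fringe LOC114126629, which adds sugars to Notch and tunes its choice of ligand, at 38.3 ± 2.23 and 36.1 ± 0.592 CPM, did not pass. Neither did strawberry notch LOC114119062, a nuclear protein that modulates Notch targets in Drosophila. The notch homolog 4-like gene LOC114126780 had 0 to 12 counts per library and was not tested. Of 29 further genes picked by Notch pathway wording, all of them tested, 1 rose and 6 fell. Among those that did not pass, a serrate RNA effector homolog, LOC114128509, and a presenilins-associated rhomboid-like protein, LOC114132756, matched by wording alone. The list holds 6 genes of the hairy and Enhancer of split family of transcriptional repressors, which includes common Notch targets, and of these 2 fell, 1 rose and 3 did not pass. The HES-1-A-like gene LOC114124670 had 61.7, 62.9 and 66.4 CPM in resistant and 102.6, 97.8 and 100.8 in susceptible libraries, without overlap, and fell by 0.66 ± 0.08 (adjusted p = 0.000525). Hairy, LOC114132619, fell by 0.55 ± 0.11 (adjusted p = 0.00675). Neuralized-like protein 4, LOC114129792, fell by 0.71 ± 0.11 on the log2 scale (adjusted p = 0.00194). An Enhancer of split mgamma-like gene model marked partial, LOC114133058, rose by 2.10 ± 0.36 from 49 counts in all susceptible libraries to 215 in all resistant ones (adjusted p = 0.00277). The model of that name not marked partial, LOC114118909, did not pass (0.11 ± 0.18, adjusted p = 0.642). Nor did Enhancer of split mbeta-like LOC114132939 (0.05 ± 0.15, adjusted p = 0.826) or deadpan-like LOC114119110 (-0.19 ± 0.29, adjusted p = 0.649). The other Notch ligand, Serrate, LOC114123496, did not pass either (-0.04 ± 0.19, adjusted p = 0.882). The count of these further genes that fell was 9 without resistant replicate 1, 3 without resistant replicate 2 and 3, 4 and 3 without susceptible replicates 1, 2 and 3. Over all genes the counts in these settings were 2826, 1173, and 812, 788 and 789, in place of 1611.

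In the Hedgehog pathway the receptor patched, the transducer smoothened and dispatched fell, 3 of 5 tested genes, and 0 rose. Over all tested genes 14.4% fell and 21.4% rose. Leaving out susceptible replicate 1, 2 or 3 left 2 that fell, where 812, 788 and 789 of all genes fell in place of 1611. Patched, LOC114121827, which is also a transcriptional target of the pathway in Drosophila, had 137.2, 144.7 and 157.3 CPM in resistant and 212.1, 218.4 and 224.8 in susceptible libraries. The strains were far apart relative to the spread within each, with a log2 fold change of -0.58 ± 0.08 (adjusted p = 0.00123). Smoothened, LOC114119979, had 62.6, 66.1 and 69.9 CPM in resistant and 94.2, 98.0 and 91.8 in susceptible libraries. It fell by 0.52 ± 0.08 (adjusted p = 0.00219). Both calls held in all 13 alternatives, where the change ranged from -0.72 to -0.53 for patched and from -0.66 to -0.48 for smoothened. Dispatched, LOC114131062, had 35.5, 54.2 and 56.9 CPM in resistant and 79.0, 75.1 and 75.0 in susceptible libraries. It was lowest in resistant replicate 1 and fell by 0.64 ± 0.17 (adjusted p = 0.0182), or 0.46 without that library (adjusted p = 1.5e-05). Its adjusted p was 0.0685, 0.0605 and 0.0542 without susceptible replicates 1, 2 and 3. The ligand, described as desert hedgehog-like LOC114122492, had 31.2, 16.4 and 17.4 CPM in resistant and 16.3, 16.7 and 15.3 in susceptible libraries. Only resistant replicate 1 was clearly above the susceptible range, and the gene did not pass (0.43 ± 0.24, adjusted p = 0.198; 0.07 without that library). Interference hedgehog, LOC114129250, a co-receptor that binds the ligand, was at 53.7 ± 3.74 and 59.2 ± 1.39 CPM (adjusted p = 0.263). No gene was described as cubitus interruptus, the transcription factor at the end of the pathway in Drosophila.

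**Figure D3:**
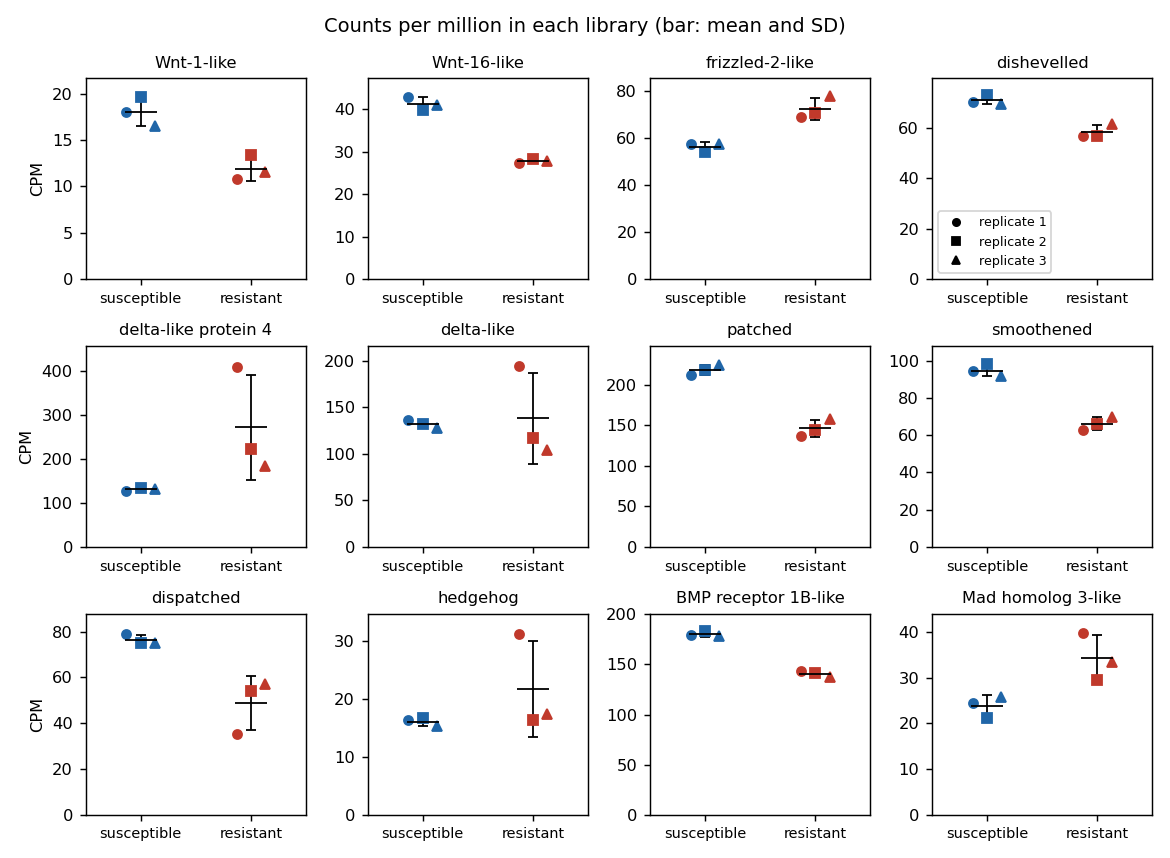
Library-scaled counts (CPM) of 12 pathway genes in each library, with the mean and SD of each strain (circle, square and triangle mark replicates 1, 2 and 3). Patched and smoothened separate the strains with little spread, while Delta, delta-like protein 4 and hedgehog are raised in resistant replicate 1.

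Among 17 further genes of the Hedgehog list, 12 were tested, of which 5 fell and 1 rose. Fused, a kinase of the Hedgehog signalling complex, had a pair of gene models. LOC114120155 fell by 0.61 ± 0.16 on the log2 scale (adjusted p = 0.0203), and LOC114120153 was at -0.47 ± 0.16 (adjusted p = 0.0551). Suppressor of fused, LOC114122886, an inhibitor in the same complex, had 32.0, 32.5 and 31.9 CPM in resistant and 43.1, 43.1 and 40.3 in susceptible libraries and fell by 0.39 ± 0.09 (adjusted p = 0.011). The 2 strains did not overlap in that gene. G protein-coupled receptor kinase 2, LOC114127518, which phosphorylates smoothened in Drosophila, fell by 0.34 ± 0.10 (adjusted p = 0.0319). A cAMP-dependent protein kinase inhibitor, LOC114128172, fell by 0.95 ± 0.09 (adjusted p = 0.000121), while that kinase's catalytic subunit 1, LOC114126142, did not pass (0.15 ± 0.08, adjusted p = 0.192). The type II regulatory subunit LOC114125073 fell by 0.24 ± 0.08 (adjusted p = 0.0405). The kinase acts in many pathways besides this one. LOC114130050, a GLIS2 homolog related to the Gli zinc fingers, rose by 0.71 ± 0.16 (adjusted p = 0.0103). A gene described as zinc finger protein GLI4, LOC114120779, at 89.7 FPKM, did not pass (-0.14 ± 0.16, adjusted p = 0.525). The count that fell was 9 without resistant replicate 1 and 2, 1 and 2 without susceptible replicates 1, 2 and 3. Over all genes it was 2826, and 812, 788 and 789, in place of 1611.

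In the BMP pathway 2 of 11 tested genes rose, a Mad gene and an author-named BMP-binding locus, and 1, a receptor, fell. The tested ligands did not pass. The BMP receptor type-1B-like kinase LOC114133078 had 143.9, 141.2 and 137.5 CPM in resistant and 179.4, 183.1 and 177.9 in susceptible libraries. Its libraries were tightly grouped in each strain, and it fell by 0.35 ± 0.07 on the log2 scale (adjusted p = 0.00638), in all 13 alternatives as well. The type-2 partner, activin receptor type-2A-like LOC114126531, had 91.0, 117.5 and 127.9 CPM in resistant and 133.5, 130.3 and 135.6 in susceptible libraries. The libraries did not overlap, but the spread within the resistant strain was wide, and it did not pass (-0.25 ± 0.12, adjusted p = 0.156). Mad homolog 3-like LOC114124126, a partial gene model whose Swiss-Prot match is Drosophila Mad, had 39.7, 29.4 and 33.4 CPM in resistant and 24.5, 21.2 and 25.7 in susceptible libraries. It rose by 0.52 ± 0.14 on the log2 scale (adjusted p = 0.0216). With library totals alone the adjusted p was 0.064, and it was 0.0694, 0.0957 and 0.0577 without susceptible replicates 1, 2 and 3. The shared partner Mad homolog 4, LOC114127172, was at 75.3 ± 8.18 and 77.0 ± 3.23 CPM, and the inhibitory Mad homolog 6, LOC114120745, at 147.7 ± 24.2 and 163.9 ± 1.97 CPM.

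Ligand genes described as decapentaplegic-like numbered 5. LOC114123096 held 66.5 ± 7.69% of their summed FPKM in resistant libraries against 67.8 ± 3.41% in susceptible ones, and its level was 34.2 ± 3.66 and 35.2 ± 1.34 CPM (adjusted p = 0.775). LOC114122517 was at 5.42 ± 1.5 and 6.14 ± 0.967 CPM, and LOC114122508 at 0.913 ± 0.396 and 0.890 ± 0.118 CPM. LOC114129981 had 82, 167 and 73 counts in resistant and 83, 38 and 46 in susceptible libraries and a log2 difference of 0.89 ± 0.34 (adjusted p = 0.0714). The lowest resistant library, at 1.99 CPM, lay under the highest susceptible one, at 2.17 CPM. It passed with DESeq2 (adjusted p = 0.0477) and without resistant replicate 1, resistant replicate 3 or susceptible replicate 1 (0.0341, 0.034 and 0.0498). LOC114128049 had at most 9 counts in a library and was not tested. How reads shared between similar copies were counted is not stated, so the values of single copies are uncertain. Outside the cell, the BMP-binding endothelial regulator gene LOC114123841, a partial model named after vertebrate proteins that bind BMP ligands, was at 47.8 ± 11.6 and 49.9 ± 0.665 CPM. A locus named by the authors with the same description, Aphis_gossypii_newGene_1503, had 40, 46 and 32 counts in resistant libraries and 2, 0 and 0 in susceptible ones. It rose (adjusted p = 0.000859), with a ratio of 57.2 per scaled library total and a 95% exact binomial interval of 15.5 to 477.9, which covers counting error only. The table gives it no protein domain. It lay at 1.5 FPKM, and with only genes above 1 CPM in at least 3 libraries kept it was not tested.

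Of 20 further genes picked by BMP and TGF-beta wording, 3 rose and 2 fell. A growth/differentiation factor 8-like ligand, LOC114132850, rose by 1.22 ± 0.37 on the log2 scale (adjusted p = 0.0316). Its resistant values of 6.11, 4.40 and 2.76 CPM lay above the susceptible ones of 2.33, 2.17 and 1.14 CPM. A partial model of the same description, LOC114132840, at 16.7 against 1.88 FPKM, did not pass (0.44 ± 0.17, adjusted p = 0.0837). Nor did growth/differentiation factor 11, LOC114122029 (0.62 ± 0.23, adjusted p = 0.0692). Both were higher in the resistant strain without overlap. The tolloid-like metalloproteases, which free BMP ligands from their antagonists, moved in opposite directions. LOC114124504 rose by 0.46 ± 0.12 (adjusted p = 0.0165) and LOC114123764 fell by 0.39 ± 0.10 (adjusted p = 0.02). The other riser, LOC114123326, is a heat shock protein 60A that matched by wording alone, and the other gene that fell, LOC114124929, is a TGF-beta-induced extracellular protein (-0.53 ± 0.16, adjusted p = 0.0341). Leaving out susceptible replicate 1 or 3 left 0 that rose and 0 that fell, and without resistant replicate 1 there were 4 and 6. Over all genes 1664 rose and 812 fell without susceptible replicate 1, 1593 and 789 without susceptible replicate 3, and 3249 and 2826 without resistant replicate 1. Over the 4 pathways, 7 of the 76 tested further genes rose and 14 fell (9.21% and 18.4%), or 6 and 21 with library totals alone. Of all 11149 tested genes 21.4% rose and 14.4% fell, or 1759 and 2322 genes with library totals alone. In either direction 27.6% of the further genes passed, against 35.8% of all tested genes.

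Among the 10 tested genes that matched by wording alone, 4 rose and 1 fell, where 21.4% of all tested genes rose and 14.4% fell. The patched domain-containing protein 3-like genes encode membrane proteins related to patched and placed by the table in the lysosome pathway. LOC114127402 had 60.6, 44.6 and 42.1 CPM in resistant and 20.7, 21.0 and 20.7 in susceptible libraries. LOC114127446 had 6.18, 6.72 and 6.44 CPM in resistant and 2.95, 2.58 and 2.78 in susceptible libraries. Both were at least 2-fold higher in the resistant strain, by 1.24 ± 0.15 (adjusted p = 0.000522) and 1.22 ± 0.17 on the log2 scale (adjusted p = 0.00106), and passed in all 13 alternatives, whereas patched itself fell. Notchless, linked to Notch in Drosophila and known for a part in ribosome assembly, has 2 gene models. LOC114122815 rose by 0.74 ± 0.17 (adjusted p = 0.0102), with 11, 8.32 and 9.90 CPM in resistant and 6.06, 5.36 and 6.05 in susceptible libraries, but had an adjusted p of 0.0534 without susceptible replicate 2. The other, LOC114122816, was higher without overlap but did not pass (0.36 ± 0.15, adjusted p = 0.0938). Armadillo repeat-containing protein 8 rose by 0.29 ± 0.09 (adjusted p = 0.0401), and an armadillo-like helical domain protein fell by 0.44 ± 0.15 (adjusted p = 0.0461). The repeat protein missed the threshold in 6 of the 13 alternatives (adjusted p up to 0.323) and the helical domain protein in 4 (up to 0.135). A gene described as a cGMP phosphodiesterase subunit delta-like protein had 0 counts in every library.

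Leaving out resistant replicate 1 kept all 16 calls and added 9. Of the added ones 8 were lower and 1, the decapentaplegic-like LOC114129981, was higher. The lower ones were Wnt-2 (-0.32, adjusted p = 0.0229), Wnt-5b-like (-0.43, adjusted p = 7.37e-05), frizzled-5 (-0.32, adjusted p = 0.000209), Delta, Notch, Mad homolog 6 (-0.29, adjusted p = 0.000261), the BMP-binding gene LOC114123841 (-0.28, adjusted p = 0.00405) and armadillo repeat-containing protein 6. In that setting 2826 of all tested genes fell, in place of 1611. Resistant replicate 1 was above both other resistant libraries in each of Wnt-2, Wnt-5b-like, frizzled-5, Delta, Notch, Mad homolog 6 and LOC114123841, by 1.31 to 1.76 times their mean. Armadillo repeat-containing protein 6 was instead lowest there, at 32.2 CPM against 38.1 and 36.7. These genes were taken because leaving out that library changed their call, so a high value there is largely built into the choice. Cuticle genes were raised in resistant replicate 1 by a median of 0.74 log2 units and the bacteriocyte list by 0.66. Embryo segmentation genes lay at 0.25, gut at 0.23, muscle at 0.03, nervous system at -0.1 and germline and early embryo at -0.18. The part of these lists in the values above was not tested.

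**Figure D4:**
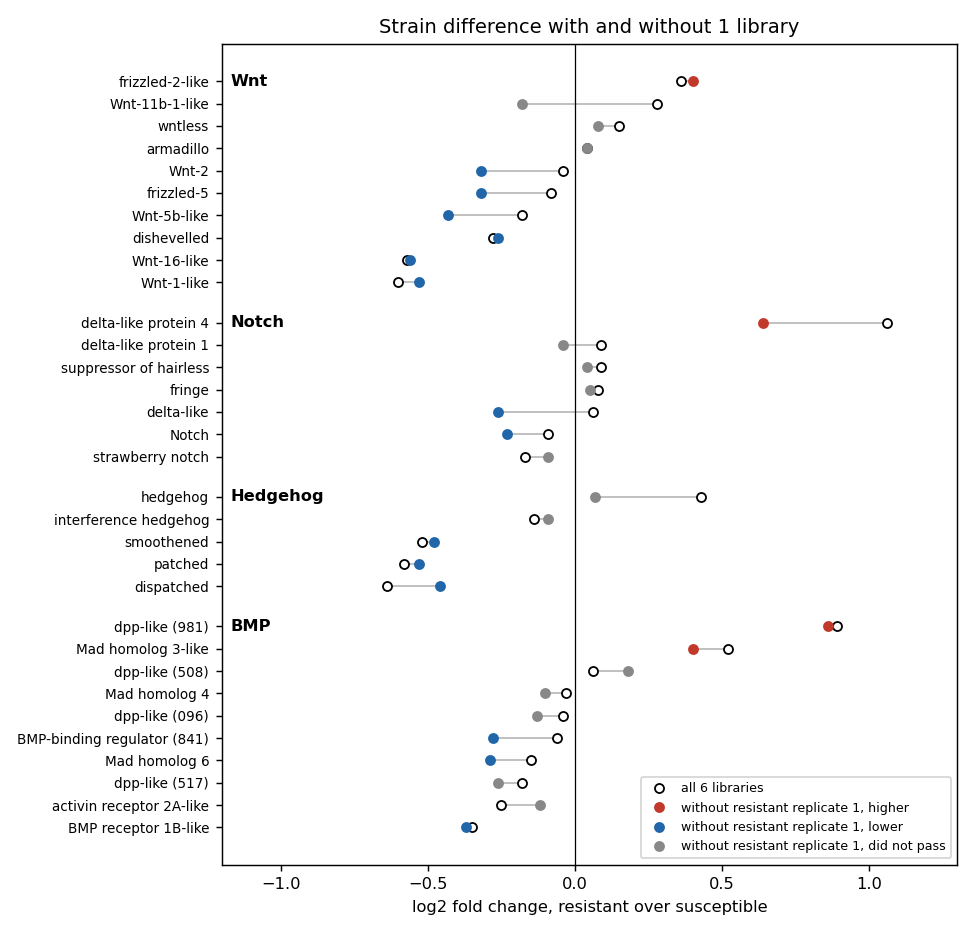
Log2 fold change of the tested pathway genes with all 6 libraries (open circles) and without resistant replicate 1 (filled; blue and red passed an adjusted p of 0.05 as lower and higher). Delta moves from 0.06 to -0.26 and Wnt-5b-like from -0.18 to -0.43, while patched moves from -0.58 to -0.53 and the BMP receptor from -0.35 to -0.37.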

How the data were processed

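RNA of 6 pooled whole-body libraries was sequenced. Per the submitters' processing notes, fastp 0.22.0 and HISAT2 were used; the sources used here name no counter, strand setting, annotation or build, so overlapping and antisense genes cannot be told apart. The authors deposited raw read counts and FPKM per gene and library, per the file headers. edgeR 4.0.16, under R 4.3.3, tested strain as the sole term by its robust quasi-likelihood F test after TMM scaling. Genes passed filterByExpr with at least 10 counts and 15 in total, and p-values were adjusted by Benjamini-Hochberg over the 11149 tested genes, with a threshold of 0.05. SEs were taken as log2 fold change over root F; CPM uses TMM-scaled totals. Deposited FPKM served for levels between genes only, untested. Alternatives used DESeq2 1.42.0 and limma 3.58.1 (voom) among others. The test was tried on simulated counts with 200 changed genes and no deviating library, a setting unlike these data, and its outcome is not used here. Product text came from the NR column of the table, and 847 genes have none. Members and lists were chosen with earlier results of these data known. Named were ligands, receptors and effectors, then up to 4 called genes per direction and pathway by size, the most abundant gene, and up to 2 further genes per pathway and direction; others among the further genes, and genes that matched by wording alone, were named after their values were seen. No sequences were used. Python 3.11.15 with pandas 2.3.3 and matplotlib 3.10.9 drew the figures and tables.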

Additional observations from a re-analysis of the deposited data

How the results depend on the processing

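With library totals alone, 5 of the 43 genes rose in place of 8 and 11 fell in place of 8, as 1759 and 2322 of all tested genes did in place of 2383 and 1611. Leaving out 1 library at a time, the number that rose ranged from 3 to 9 and the number that fell from 4 to 16. For the further pathway genes the ranges were 2 to 11 rising and 6 to 28 falling, and for all genes 1593 to 3249 and 788 to 2826. The log2 difference of the Delta gene LOC114129086 ranged from -0.26 without resistant replicate 1 to 0.23 without resistant replicate 3. Leaving out any library, resistant or susceptible, leaves 2 samples in its strain. Why the counts were larger without resistant replicate 1 and smaller without a susceptible library was not tested. DESeq2 size factors, DESeq2, limma-voom and both other low-count filters gave 7 to 9 rising and 8 to 9 falling.

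The replicate number shared between strains did not pair the libraries: same-numbered libraries had correlations of deviations of -0.0114, -0.0299 and -0.0153, and none correlated best with its own number. With the replicate block 7 rose and 7 fell, 7 and 10 among the further genes and 2109 and 1313 over all genes. With 3 libraries per strain, small changes can be missed, so a gene that did not pass is not shown to be equal.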
